A study of Sus scrofa with 30 samples.

Results

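Messenger RNA of the prolactin receptor pathway was followed through the mammary cycle of the sow in 8 genes, which were the receptor PRLR, its kinase JAK2, the transcription factors STAT5A, STAT5B and ELF5, and the feedback inhibitors CISH, SOCS1 and SOCS2. The genes were chosen by name and role, with earlier results of these data known. All their annotated transcripts with a row in the table were taken, singly and as a sum per gene. The 29047 assembled transcripts were kept under loci of their own and enter none of these sums. Of 30 annotated transcripts of the 8 genes, 22 had a row among the 61773 transcripts of the table, and these belong to 7 of the 8 genes. PRLR (gene 414916, chromosome 16, 20637568 to 20655881) has 1 annotated transcript and no row under it, so PRLR was not analysed here. Whether an assembled locus covers PRLR cannot be told, as coordinates of assembled loci were not used here.

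Prolactin binds its receptor on the mammary epithelial cell and activates JAK2, which phosphorylates STAT5A and STAT5B, and the STAT5 dimers then enter the nucleus and bind the promoters of milk protein genes. CISH, SOCS1 and SOCS2 are switched on by STAT5 and dampen the same receptors, which makes them a readout as well as a brake of the pathway. ELF5 is an ETS transcription factor of the alveolar luminal lineage that acts beside STAT5 in milk-producing cells. RNA levels do not show phosphorylation, the step at which STAT5 is activated.

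The study sampled parenchyma of 30 multiparous Danish Landrace × Yorkshire sows related through 1 parent, with 6 sows at each of 5 stages and no treatment. Mid-gestation (MG) was taken at gestation day 70 and late gestation (LG) at gestation day 110, early lactation (EL) on postpartum day 2 and peak lactation (PL) on postpartum day 10, and W2 was involution at 2 days from weaning. The sample records conflict for MG and EL, whose titles and stage entries are exchanged, and the titles, which the table follows, were used. In every stage 3 of the 6 samples lay almost at the mean of the other 3, differing among themselves by at most 1.85% (median over transcripts of at least 10 units) against 19.6% to 59.8% among the others, and they were not counted, which leaves n = 3 per stage. Values are the authors' FPKM, but the sum of a sample was 997480 to 1002643, which is a property of TPM, and they are called units here. Read counts per transcript were not used here, so the counting error of a single value is not known and the precision rests on the 3 sows per stage.

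Because each sample has the same total, the level of every gene is a share, and the abundant milk protein transcripts bear on it. The 6 milk protein genes of the pathway list held 1.19% to 2.95% of all units at MG, 3.40% to 5.94% at LG and 6.40% to 12.1% at EL. At PL the share was 9.14% to 28.5%, and at W2 it was 0.579% to 0.816%. The median log2 fold change of all 26019 genes and loci was −0.57 in PL vs MG, −0.45 in PL vs LG and 0.68 in W2 vs PL. Differences are therefore given as deposited and after scaling by the median ratio of 3522 genes with at least 10 units in every counted sample, which brought these medians to −0.05, −0.06 and 0.09. The scaling factor was lowest, 0.566, in PL sample 2, where milk protein genes held the 28.5%. Factor and share did not keep the same order throughout. PL sample 6 (9.14%) had a factor of 0.839 and EL sample 6 (10.4%) a factor of 0.932. The part of milk protein transcripts in the shift of the medians was not tested.

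Among the 7 genes with a row, the clearest change lay in 1 transcript of STAT5B. XM_021066242.1 was close to 0 in mid-gestation and was present in each of the 12 samples of the later stages. Its values were 1.33, 0 and 0 units in MG and 36.7, 27.4 and 23.5 units in LG. They were 37.8, 14.4 and 23.1 units in EL, 8.09, 15.6 and 14.7 units in PL, and 38.4, 19.0 and 23.7 units in W2. The lowest later sample thus stood above the highest MG sample, a pattern whose share among all transcripts was not counted here.

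XM_021066242.1 was 1 of 10 differentially expressed transcripts (DETs, adjusted p below 0.05 and absolute log2 fold change of at least 2) in LG vs MG, where 0.0162% of all transcripts passed. Its log2 fold change was 5.25 (SE 0.52, adjusted p = 0.0027) in LG vs MG and 4.95 (SE 0.52, adjusted p = 0.0035) in EL vs MG, where 0.0389% of transcripts passed. It was 4.06 (SE 0.52, adjusted p = 0.0013) in PL vs MG and 5.10 (SE 0.52, adjusted p = 0.0040) in W2 vs MG, where 1.76% and 0.0275% of transcripts passed. These 4 comparisons share the MG samples. As 2 of the 3 MG values are listed at 0, the folds depend on the pseudocount of 0.5 units. After median ratio scaling and in each of the other alternatives bar 1 the transcript passed the adjusted p in LG vs MG (log2 fold changes 4.49 to 6.89), and the exception was a fit of MG and LG alone, with an adjusted p of 0.19.

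The STAT5B gene sum did not follow this transcript. In MG it made up at most 0.969% of the STAT5B sum, and in the 12 later samples 9.87% to 34.2%. Without it, the STAT5B sum was 122 ± 33.1 units in MG and 102 ± 42.9 units in LG (SD, n = 3), so the values overlapped. Of the other 4 STAT5B transcripts none was a DET in any of the 10 comparisons. Of 220 transcript tests 5 passed, and no member transcript was a DET in EL vs LG (0.0178% of all transcripts), PL vs EL (0.408%), W2 vs PL (2.84%), W2 vs LG (0.0324%) or W2 vs EL (0.0631%). How the reads were divided among overlapping transcripts of a gene cannot be checked from the table, and the coordinates of single transcripts were not used here.

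**Figure D1:**
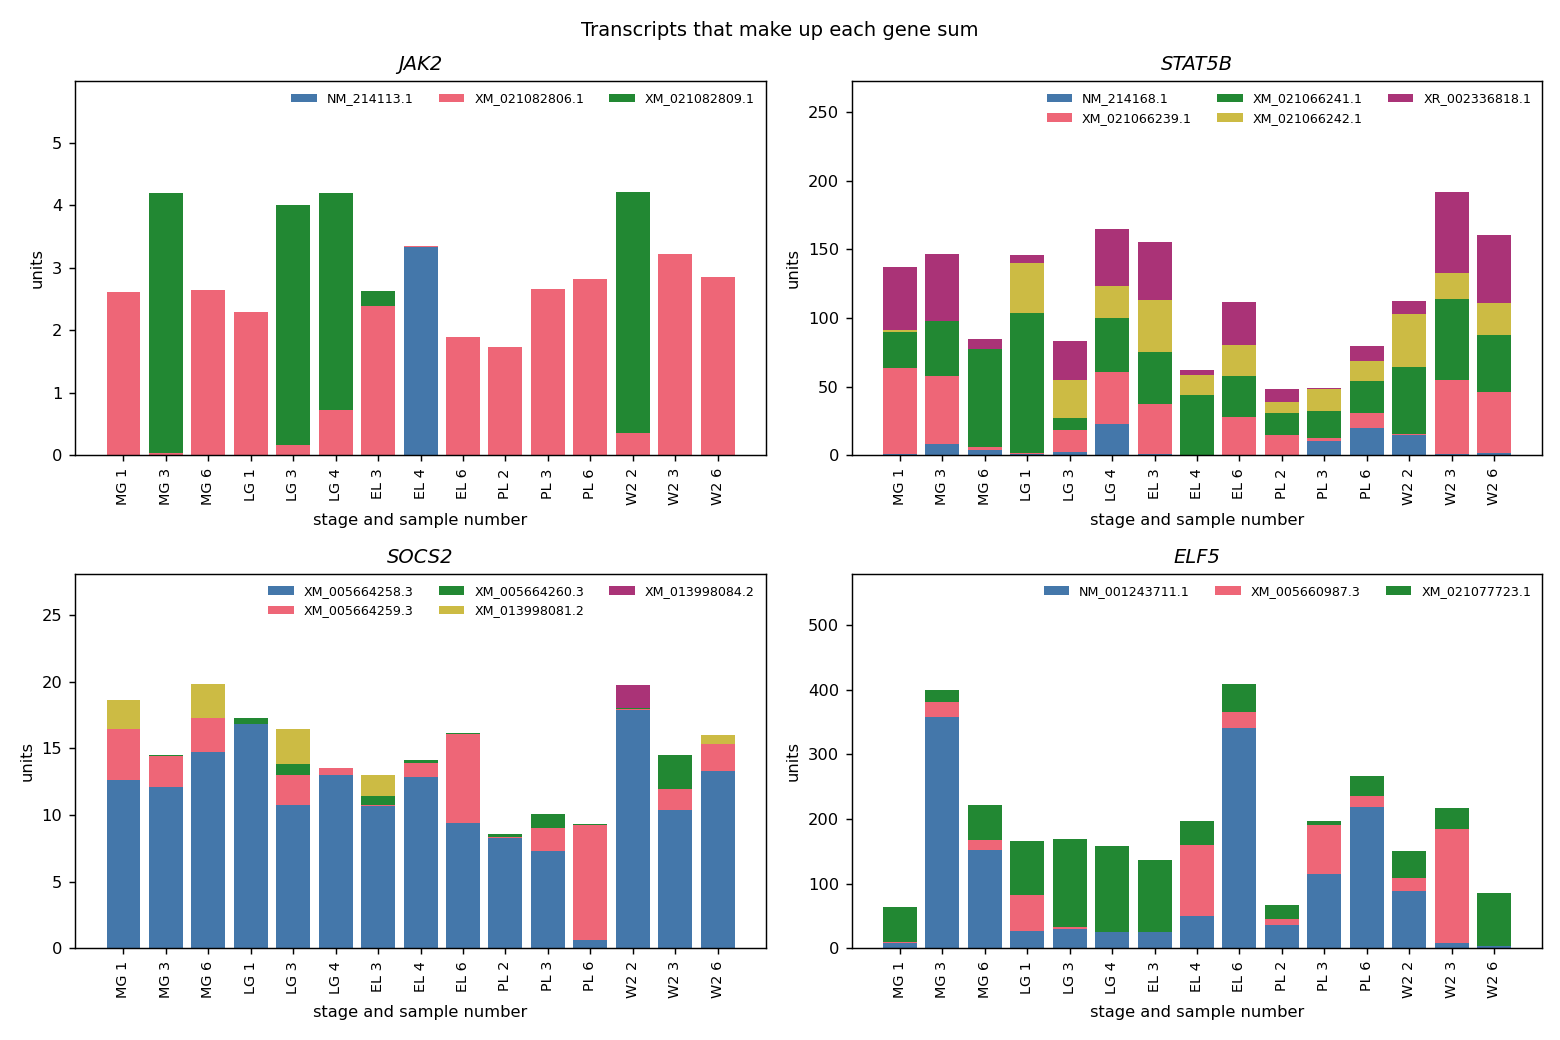
Stacked bars give the units of each annotated transcript of JAK2, STAT5B, SOCS2 and ELF5 in the 15 counted samples, labelled by stage and sample number, on linear axes that start at 0. The yellow part of the STAT5B bars (XM_021066242.1) is at most 1.33 units in the 3 MG samples and at least 8.09 units in the 12 later ones, and the leading ELF5 transcript changes between sows of a stage.

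The transcript that led a gene often differed between sows of the same stage. JAK2 (gene 397201, chromosome 1, 216849744 to 217002310) showed it most sharply, as a single transcript held over 90% of its sum in 14 of 15 samples, but not the same one. XM_021082806.1 led in 10 samples, XM_021082809.1 in MG sample 3, LG samples 3 and 4 and W2 sample 2, and NM_214113.1 in EL sample 4 only, where it held 3.33 units and in every other counted sample 0. STAT5B was led by XM_021066241.1 in 7 samples, by the non-coding XR_002336818.1 in 6 and by XM_021066239.1 in 2. SOCS2 was led by XM_005664258.3 in all counted samples but PL sample 6, where XM_005664259.3 held 8.65 of 9.33 units.

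ELF5 was split in the same way. NM_001243711.1 led in 7 samples with up to 358 units, XM_021077723.1 in 6, among them the 3 LG samples, and XM_005660987.3 in EL sample 4 and W2 sample 3. XM_021077723.1 had 83.4, 137 and 133 units in LG and 21.6, 5.90 and 31.8 units in PL. It was the only other member transcript among the DETs of the 10 comparisons, lower in PL than in LG by a log2 fold change of −2.80 (SE 0.63, adjusted p = 0.037), where 1.09% of all transcripts passed. After median ratio scaling the change was −2.30 with an adjusted p of 0.11, leaving out PL sample 3 gave −2.11 (adjusted p = 0.081), and it did not pass in 14 of 24 alternatives (adjusted p up to 0.22), 1 of which left out LG sample 4 (adjusted p = 0.14).

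In gene sums, JAK2, the kinase bound to the receptor, was low at every stage. It measured 2.62, 4.19 and 2.64 units in MG, 2.30, 4.00 and 4.19 units in LG, 2.63, 3.35 and 1.89 units in EL, 1.74, 2.67 and 2.83 units in PL, and 4.22, 3.22 and 2.85 units in W2. Its stage means ran from 3.49 ± 1.04 units in LG to 2.41 ± 0.59 units in PL (SD, n = 3), and neighbours in the order LG, W2, MG, EL, PL overlapped in their samples. JAK2 passed the test in none of the 10 comparisons.

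STAT5A and STAT5B lie side by side on chromosome 12 (genes 397550 and 397340, 20474221 to 20498785 and 20498103 to 20574365) and their annotations overlap by 683 bases. The strand setting of the counting was not given in the sources used here, and the 2 genes are close paralogs, so reads in shared stretches may be assigned to either. STAT5B was the more abundant of the pair per length in each of the 15 samples, by 1.46 to 18.9 times.

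STAT5A measured 7.79, 11.2 and 7.25 units in MG, 70.7, 9.84 and 8.74 units in LG, 9.79, 17.9 and 76.8 units in EL, 7.06, 6.14 and 9.60 units in PL, and 8.56, 13.4 and 13.8 units in W2. A single sow in LG and a single sow in EL stood far above the 13 other samples, which lay between 6.14 and 17.9 units. In those 2 sows the STAT5B level was 1.46 and 2.06 times that of STAT5A, against 3.47 to 18.9 times in the others. STAT5A passed in no comparison, and its stage means of 29.8 ± 35.5 units in LG and 34.8 ± 36.6 units in EL (SD, n = 3) rest on those sows. Within stages STAT5A varied with an SD of 1.03 on the log2 scale, against a median of 0.36 for the 500 annotated genes closest to it in mean level.

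STAT5B measured 137, 147 and 84.6 units in MG, 146, 83.7 and 165 units in LG, 155, 61.9 and 112 units in EL, 48.2, 48.8 and 79.9 units in PL, and 112, 192 and 161 units in W2. Its PL samples lay below those of MG, LG and W2 and overlapped with EL. In W2 vs PL it was higher by a log2 fold change of 1.39 (SE 0.37, adjusted p = 0.014), or 2.63-fold, and without W2 sample 3 by 1.22 (adjusted p = 0.058). In PL vs MG and PL vs LG it did not pass, at −1.05 (adjusted p = 0.057) and −1.13 (adjusted p = 0.060).

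ELF5 (gene 100510890, chromosome 2, 26443979 to 26486802) overlaps an annotated non-coding locus, LOC106509379, and was the most abundant of the 7 genes in the stage means of MG, LG, EL and PL. It measured 64.2, 400.2 and 221 units in MG, 166, 169 and 158 units in LG, 136, 196 and 408 units in EL, 66.4, 197 and 267 units in PL, and 150.2, 217 and 84.7 units in W2. All stages overlapped with their neighbours in the order EL, MG, PL, LG, W2, and ELF5 passed in no comparison. The 3 LG sows were within 158 to 169 units while the MG sows spanned 64.2 to 400.2 units, and the SD within stages was 0.90 on the log2 scale, against a median of 0.27 for the 500 annotated genes closest in mean level.

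CISH (gene 100518866, chromosome 13, 33086280 to 33090540), an inhibitor that competes for receptor docking sites, was the lowest of the feedback genes in each stage mean except PL. It measured 0.81, 1.85 and 0.66 units in MG, 1.64, 1.87 and 0.29 units in LG, 0.33, 0.18 and 1.87 units in EL, 0.81, 6.10 and 0.25 units in PL, and 0.52, 0 and 0.35 units in W2. The highest value, 6.10 units, was PL sample 3, and no other sample exceeded 1.87 units. CISH passed in no comparison. Against the other 4 stages its PL difference was 0.64 on the log2 scale with all samples and −0.27 (adjusted p = 0.74) without PL sample 3.

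SOCS1 (gene 100307052, chromosome 3, 31879143 to 31883041), which binds and inhibits JAK kinases, measured 2.37, 3.84 and 2.26 units in MG and 3.07, 2.20 and 3.60 units in LG. It then measured 2.28, 2.33 and 1.29 units in EL, 0.84, 1.40 and 1.16 units in PL, and 2.43, 2.85 and 4.23 units in W2. The PL samples lay below those of MG, LG and W2, while PL and EL overlapped. SOCS1 was lower in PL than in MG by −1.01 (SE 0.30, adjusted p = 0.030), lower in PL than in LG by −1.07 (SE 0.30, adjusted p = 0.034) and higher in W2 than in PL by 1.15 (SE 0.30, adjusted p = 0.013) on the log2 scale. Each of these calls was lost without certain single sows. PL vs MG gave an adjusted p of 0.12 without MG sample 3 and 0.081 without PL sample 2, and W2 vs PL gave 0.055 without W2 sample 6. PL vs LG gave 0.091, 0.12, 0.085 and 0.051 without LG sample 1, LG sample 4, PL sample 2 and PL sample 6.

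SOCS2 (gene 100037966, chromosome 5, 89581081 to 89587424), a brake on growth hormone and prolactin receptors, was the steadiest of the 7 genes within stages. It measured 18.6, 14.5 and 19.8 units in MG, 17.3, 16.5 and 13.5 units in LG, 13.0, 14.1 and 16.2 units in EL, 8.55, 10.1 and 9.33 units in PL, and 19.8, 14.5 and 16.0 units in W2. The 3 PL samples were lower than each of the 12 other samples, a pattern that 11.3% of all genes and loci had. The mean was 9.32 ± 0.77 units in PL against 14.4 ± 1.6 to 17.6 ± 2.8 units elsewhere (SD, n = 3). The SD within stages was 0.19 on the log2 scale, against a median of 0.39 for genes of like level.

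**Figure D2:**
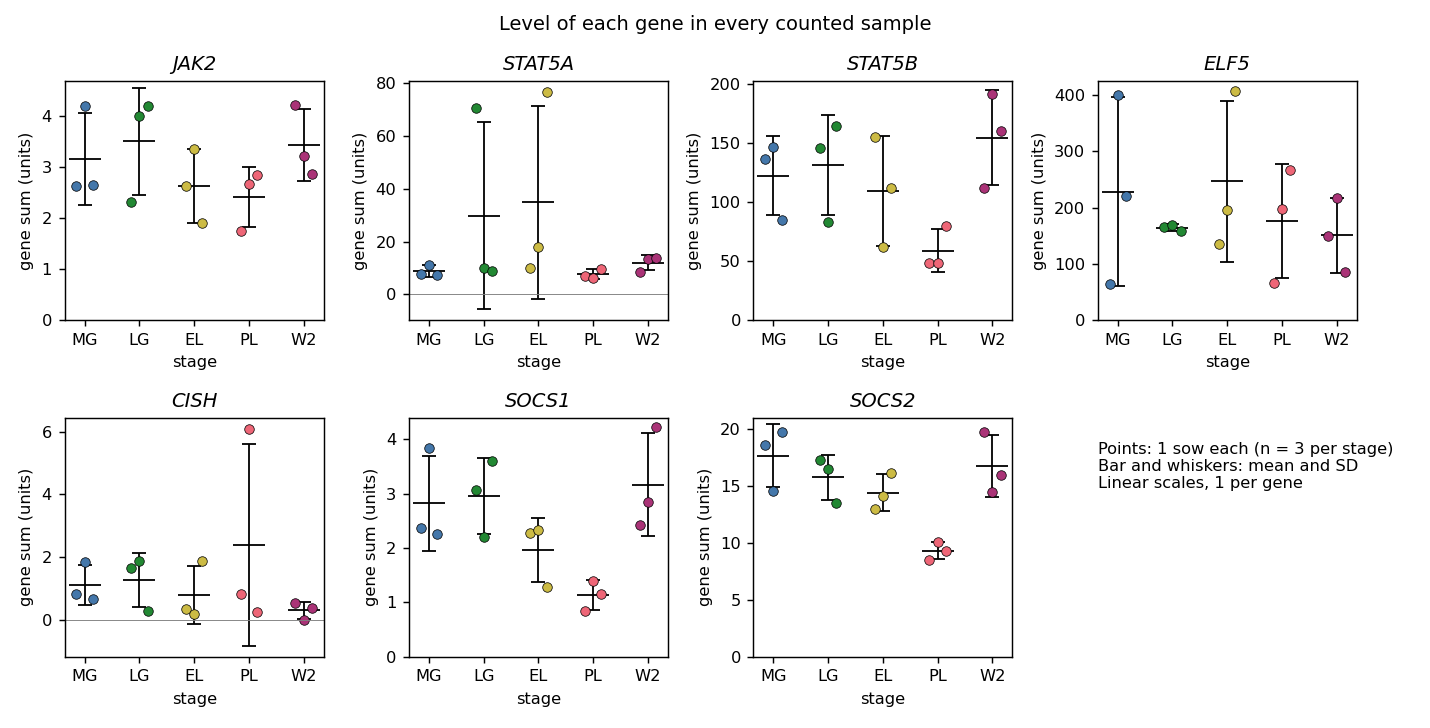
Each panel gives the gene sum in units on its own linear axis, with 1 point per counted sow (n = 3 per stage), the mean as a bar and the SD as whiskers. SOCS2 in PL lies below all other samples, at 8.55 to 10.1 units, whereas STAT5A is set apart by 1 sow in LG at 70.7 units and 1 in EL at 76.8 units.

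All differences that passed in the gene sums involved peak lactation. Of 70 tests (7 genes in 10 comparisons), 7 passed at an adjusted p below 0.05, each in a comparison with PL and none with an absolute log2 fold change of 2 or more. In W2 vs PL, STAT5B, SOCS1 and SOCS2 rose, 3 of 7 genes, where 32.8% of all genes and loci passed and 30.4% passed as higher. SOCS2 rose by 0.80 (SE 0.18, adjusted p = 0.0063). In PL vs MG, SOCS1 and SOCS2 fell, 2 of 7 genes, where 25.2% of all passed and 23% as lower, and SOCS2 changed by −0.88 (SE 0.18, adjusted p = 0.0055). In PL vs LG, SOCS1 and SOCS2 fell again, where 14.7% of all passed and 13.1% as lower, and SOCS2 changed by −0.72 (SE 0.18, adjusted p = 0.022), with an adjusted p of 0.073 without LG sample 1 and 0.063 without LG sample 3. In PL vs EL 0 of 7 genes passed in limma, with 2 at an unadjusted p below 0.05, where 4.62% of all passed. With 7 genes these counts were not set apart from the background. The comparisons with PL share its 3 samples. By sample ranges alone, JAK2, STAT5B, SOCS1 and SOCS2 were higher in all W2 than in all PL samples, as were 40.6% of genes and loci, and STAT5B, SOCS1 and SOCS2 were lower in all PL samples than in all MG (35.9%) and all LG samples (30.5%), and STAT5A and SOCS2 than in all EL samples (15.8%). Outside PL, SOCS1 was higher in all W2 than in all EL samples (35.5%) and CISH lower in all W2 than in all MG samples (2.21%), and neither passed the test.

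In the 6 comparisons without PL 0 of 7 gene sums passed in limma, and 0 had an unadjusted p below 0.05. Few genes of any kind passed there, 0.0115% in LG vs MG and in W2 vs MG, 0.0154% in EL vs LG, 0.0269% in EL vs MG, 0.0346% in W2 vs LG and 0.553% in W2 vs EL. Differences between these stages were not detectable in the gene sums with 3 sows per stage, and exact permutation of 3 against 3 samples cannot give a two-sided p below 0.10.

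Pooling stages gave the same 3 genes, on the same PL samples, so it adds no separate support. PL was set against the other stages because it stood apart in the whole table. Against the other 4 stages together, PL was lower for STAT5B by −1.10 (SE 0.30, adjusted p = 0.015), for SOCS1 by −0.95 (SE 0.24, adjusted p = 0.011) and for SOCS2 by −0.75 (SE 0.15, adjusted p = 0.0026), where 30.3% of all genes and loci passed and 27.3% as lower. The exact permutation test of 3 against 12 samples (two-sided, 7 genes tested, unadjusted) gave p = 0.0044 for STAT5B and SOCS1 and p = 0.0022, the smallest it can give, for SOCS2. Of all genes and loci 11.3% had, like SOCS2, every PL sample below all other samples. Both lactation stages against MG, LG and W2 gave −0.78 for STAT5B (SE 0.24, adjusted p = 0.027), −0.79 for SOCS1 (SE 0.20, adjusted p = 0.0098) and −0.50 for SOCS2 (SE 0.12, adjusted p = 0.0078), where 33.8% of all passed and 31.5% as lower. STAT5B lost this call without any 1 of 6 samples (MG 3, LG 4, EL 4, PL 2, PL 3 or W2 3, adjusted p 0.053 to 0.075). In an F-test over the 5 stages only SOCS2 passed (adjusted p = 0.024, not passed without PL sample 6), where 18.3% of all passed, with STAT5B at 0.096 and SOCS1 at 0.061.

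None of the gene sum calls was kept after rescaling. With median ratio scaling 0 of the 70 tests passed, and 0 with quantile normalization. Of all genes and loci 13.1% passed after median ratio scaling in W2 vs PL, 11% in PL vs MG, 8.93% in PL vs LG, 11.8% in the lactation contrast and 16.4% in PL against the other stages. In W2 vs PL the log2 fold change of STAT5B became 0.65 (adjusted p = 0.22), that of SOCS1 0.58 (adjusted p = 0.18) and that of SOCS2 0.09 (adjusted p = 0.85). Against the other stages PL differed by −0.54 for STAT5B (adjusted p = 0.18), −0.54 for SOCS1 (adjusted p = 0.11) and −0.21 for SOCS2 (adjusted p = 0.45). The exact permutation p values of these 3 were 0.042, 0.011 and 0.20 on that scale. Put relative to the median of all genes, SOCS2 in W2 vs PL was higher by 0.12 and STAT5B by 0.72 on the log2 scale. In these 2 comparisons the direction of STAT5B, SOCS1 and SOCS2 was the same on both scales. SOCS2 lay close to the median of all genes in W2 vs PL. Relative to that median it stood at −0.28 in PL against the other stages. Leaving out PL sample 2 gave −0.98 for STAT5B (adjusted p = 0.077) and −0.82 for SOCS1 (adjusted p = 0.053) against the other stages, and leaving out PL sample 3 gave −0.99 for STAT5B (adjusted p = 0.059), while SOCS2 passed without any single sample (adjusted p up to 0.0090).

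**Figure D3:**
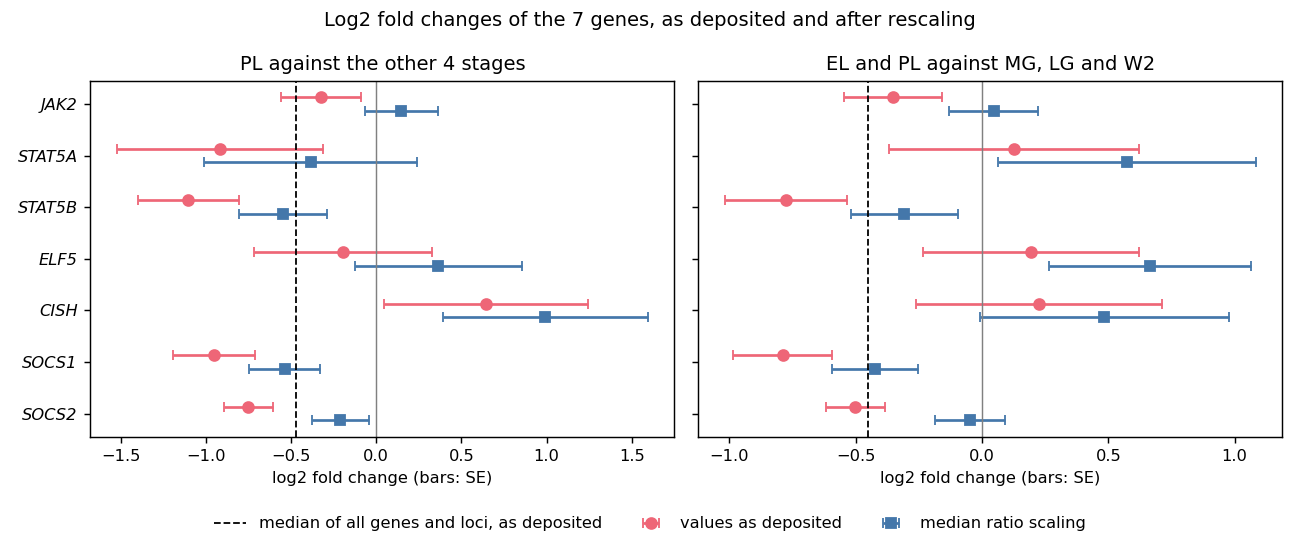
Log2 fold changes of the 7 gene sums with their SE, for PL against the other 4 stages (left) and EL with PL against MG, LG and W2 (right), as deposited (circles) and after median ratio scaling (squares). The dashed lines give the median of all genes and loci as deposited, −0.47 and −0.45, and all 7 genes move to the right with scaling, JAK2 and ELF5 across 0 in the left panel and JAK2 in the right one.

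The 46 other genes of the pathway list numbered 43 in the table. In the lactation contrast 6 of them were higher and 16 lower (2.34% and 31.5% of all genes and loci), with a median of −0.34 against −0.45 for all genes and loci. The 6 higher ones were the 6 milk protein genes, targets of STAT5. Among them the whey protein gene WAP was higher by 7.12 (SE 0.86, adjusted p = 0.00030), the casein gene CSN1S2 by 7.20 (SE 0.96, adjusted p = 0.00050) and CSN3 by 2.67 (SE 0.28, adjusted p = 0.00017) on the log2 scale. WAP averaged 21.0 units at MG, 65.1 at LG and 433 at EL, then 8689 at PL and 2.86 at W2. The summed level of the 6 genes had its highest mean at PL, 171680 units, where STAT5B, SOCS1 and SOCS2 had their lowest stage means, although PL sample 6 (91237 units) lay below EL samples 4 and 6 (120785 and 104302 units). CSN1S1 was an exception, with 14094 units at EL, 13303 at LG and 7979 at PL. All 6 fell in W2 vs PL, where 2.48% of genes and loci passed as lower, and with median ratio scaling all 6 passed again in both comparisons. For the 43 genes the balance turned with scaling, to 8 higher and 4 lower in lactation, and in W2 vs PL from 15 higher and 7 lower to 4 higher and 11 lower. The 8 and the 11 include the 6 milk protein genes. Of all genes and loci 11.8% and 13.1% passed in these comparisons after scaling, in either direction.

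Of 14 other inhibitors 6 were lower in lactation and 0 higher, with a median of −0.51. The lowest adjusted p values belonged to CAV1, a membrane scaffold that holds JAK2 back (−0.84, adjusted p = 0.00067), the STAT inhibitor PIAS3 (−1.18, adjusted p = 0.0017) and SOCS4 (−0.62, adjusted p = 0.0050). After scaling PIAS3 passed (−0.75, adjusted p = 0.0081), and CAV1 (adjusted p = 0.053) and SOCS4 (adjusted p = 0.21) did not. The count of lower calls compares with 31.5% of all genes.

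Of 6 targets other than milk proteins 4 were lower and 0 higher in lactation, beside 31.5% and 2.34% of all genes, and 2 were lower and 1 higher after scaling. The gene higher after scaling was MCL1, another survival gene (0.08 with an adjusted p of 0.63 as deposited, 0.55 and 0.0020 after scaling). Cyclin D1, CCND1, was lower by −1.44 (adjusted p = 0.00074) and TNFSF11, the RANK ligand of alveolar growth, by −1.92 (adjusted p = 0.0019), and both passed after scaling (adjusted p = 0.0077 each). The survival gene BCL2L1 was lower by −0.57 (adjusted p = 0.0027), and after scaling by −0.11 (adjusted p = 0.52). CCND1 averaged 37.3 units at MG, 21.9 at LG and 17.4 at EL, then 7.04 at PL and 35.6 at W2.

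Of 3 other receptors with a row, ERBB4, a neuregulin receptor that also activates STAT5, was lower in lactation by −0.96 (adjusted p = 0.0017; −0.71 and 0.0069 after scaling). Of 8 other JAK and STAT genes 2 were lower, beside 31.5% of all genes, JAK3 by −0.72 (adjusted p = 0.027) and STAT4 by −0.60 (adjusted p = 0.048), and neither passed after scaling. STAT3, a mediator of involution, was the only one called in W2 vs PL as deposited, lower by −1.39 (adjusted p = 0.047) and by −2.10 after scaling (adjusted p = 0.010). STAT3 averaged 21.4 ± 13.0 units in PL and 7.27 to 8.26 units in the other stages, and its lactation difference of 0.75 (adjusted p = 0.086) was 1.20 after scaling (adjusted p = 0.021). Of 6 partner transcription factors 3 were lower in lactation, beside the same 31.5%, CEBPB by −1.07 (adjusted p = 0.0074), the glucocorticoid receptor NR3C1 by −0.46 (adjusted p = 0.015) and NFIB by −0.47 (adjusted p = 0.045), and 0 of these 3 passed after scaling.

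**Figure D4:**
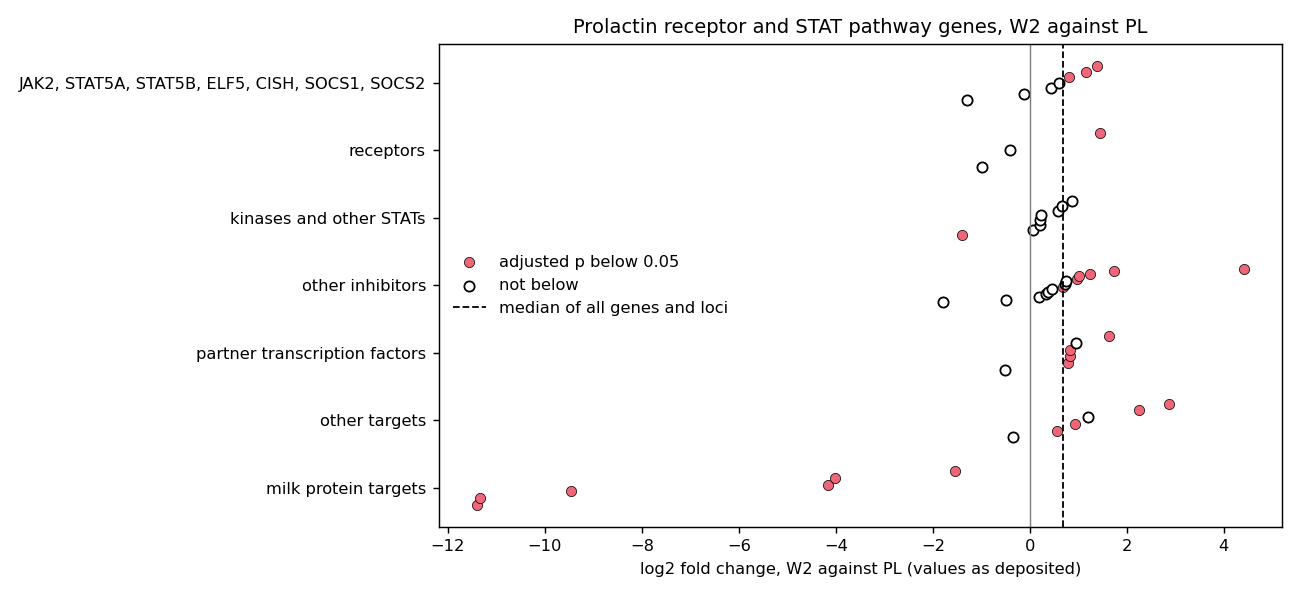
Log2 fold changes in W2 vs PL, as deposited, with 1 point per gene and 1 row per pathway list, tissue markers not drawn, filled where the adjusted p was below 0.05, and the median of all genes and loci (0.68) as a dashed line. The 6 milk protein genes lie between −11.4 and −1.54, while the called points of the other pathway lists drawn lie above 0 except STAT3 at −1.39.

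The tissue markers moved with the stages as well. In bulk tissue fewer cells of a type and less RNA per cell cannot be told apart. Of 6 luminal epithelial markers 1, the cadherin CDH1, was lower in lactation (−0.67, adjusted p = 0.018; −0.21 and 0.29 after scaling). The keratins KRT8 (−0.72, adjusted p = 0.073), KRT18 (−0.58, adjusted p = 0.11), KRT19 (−0.58, adjusted p = 0.15) and KRT7 (−0.73, adjusted p = 0.74) did not pass. EPCAM, singled out after its values were seen, differed by 0.12 (adjusted p = 0.41) as deposited and by 0.59 (adjusted p = 0.0096) after scaling. The summed level of the 6 luminal markers ran from 791 to 1638 units in PL and from 1326 to 2107 units in W2. The summed level of the 6 fibroblast markers was 472 to 1087 units in PL and 1401 to 2632 units in W2. As deposited 5 of the 6 passed as lower in lactation, beside 31.5% of all genes and loci. In the F-test over the stages, a different test, LUM (adjusted p = 0.0038) and COL3A1 (adjusted p = 0.013) passed as deposited. The others did not (adjusted p 0.056 to 0.33). After median ratio scaling LUM passed the F-test (adjusted p = 0.014), and the others did not (adjusted p 0.13 to 0.63). The 3 of 5 adipocyte markers with a row added up to 253 to 388 units in PL and to at least 444 units in every other sample. FABP4, a fatty acid binding protein, made up nearly all of that sum. As deposited it was lower in PL than in the other stages (−1.03, adjusted p = 0.00073), beside 27.3% of all genes and loci. The leptin gene LEP was higher in PL (3.46, adjusted p = 0.00067), with a mean of 10.7 units against 0.13 to 0.41 units elsewhere, and CIDEC did not pass (0.41, adjusted p = 0.54). In the F-test over the stages LEP passed as deposited (adjusted p = 0.0091) and after median ratio scaling (adjusted p = 0.0049). FABP4 passed it as deposited (adjusted p = 0.0080) but not after scaling (adjusted p = 0.16). CIDEC passed it on neither scale (adjusted p = 0.23 and 0.35). Immune markers (5 of 6 with a row) added up to 31.7 to 322 units in PL and 28.9 to 57.3 units elsewhere. As deposited they did not move together. The monocyte marker CD14 was higher in PL than in the other stages (3.81, adjusted p = 0.0026). AIF1 (−0.60, adjusted p = 0.0082) and CD3E (−0.77, adjusted p = 0.040) were lower, beside 27.3% of all genes and loci. In the F-test over the stages, a different test, CD14 passed as deposited (adjusted p = 0.029) and after median ratio scaling (adjusted p = 0.015). AIF1 (adjusted p = 0.051 and 0.97) and CD3E (adjusted p = 0.087 and 0.61) passed it on neither scale. Myoepithelial markers (5 of 6) added up to 756 to 1889 units in PL and 863 to 1676 units elsewhere, and endothelial markers (4 of 5) to 72.9 to 107 units in PL and 95.4 to 172 units elsewhere. No marker with a row was at 0 in all samples, and the part of cell composition in the differences above was not tested.

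Over the 15 samples the genes most like each member, by Pearson's r of log2(gene sum + 0.5) among 12358 annotated genes of at least 1 unit, were not members of the pathway. For STAT5B they were ETFB (r = 0.93), DDX10 (r = 0.92) and RPS25 (r = 0.92), for SOCS2 CHCHD2, OOEP and DCAF4 (r = 0.93 each), and for SOCS1 YPEL1 (r = 0.93), HIC2 (r = 0.93) and PIGBOS1 (r = 0.92). For ELF5 they were DEDD2 (r = 0.78), FAM110C (r = 0.77) and RAPGEFL1 (r = 0.73), for STAT5A LY6H (r = 0.80), LOC110260994 (r = 0.76) and CTCF (r = 0.70), for CISH SEMA4C (r = 0.84), KCTD11 (r = 0.71) and NAV1 (r = 0.70), and for JAK2 they included IFT52 (r = 0.85) and RC3H2 (r = 0.80). After median ratio scaling r with SOCS2 was 0.85 for CHCHD2, 0.57 for OOEP and 0.60 for DCAF4. The genes named for STAT5B then had r of 0.77 to 0.85 and those for SOCS1 0.82 to 0.85. Those for ELF5, STAT5A and CISH had 0.70 to 0.88, and for JAK2 IFT52 had 0.71 and RC3H2 0.65. Among the members themselves, the highest was STAT5B with SOCS1 (r = 0.75, and 0.43 after scaling), and STAT5A with STAT5B had r = 0.28. These samples share the fixed total and the stage, so the coefficients describe the 15 samples and carry no test.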

How the data were processed

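Reads were trimmed with Trimmomatic by the authors, HISAT2 placed them on Sscrofa11.1, and StringTie gave assembled transcripts and their FPKM, with a minimum of 0.5 in some stage. Whether the RUVs correction they name is in the deposited values was not given in the sources used here. The deposited values, called FPKM by the authors, were treated as TPM because of their totals. Transcript identifiers were mapped with the RefSeq annotation of Sscrofa11.1, which also gave the coordinates, and no sequences were used here. The members and lists were chosen with earlier results of these data known. The contrast of PL with the other stages was chosen because PL stood apart in the whole table. Named genes of a list are the at most 3 with the lowest adjusted p in the lactation contrast or W2 vs PL. MCL1, CSN1S1 and further tissue markers, EPCAM among them, were named after their values were seen.

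Gene sums were tested as log2(sum + 0.5) with limma 3.58.1 in R 4.3.3, the 5 stages in 1 fit with trended variance and Benjamini-Hochberg adjustment over 26019 genes and loci (61773 transcripts for single transcripts). The code was tested on simulated data. Exact permutation tests used Python 3.11.15. Samples not counted lay at a median of 0.325 to 0.339 units from the mean of the counted samples at levels of 1 to 10, 10 to 100 and over 100 units alike, so for low genes such as CISH they scatter widely in relative terms. Alternatives were pseudocounts of 0.1 and 1, a mean of at least 1 unit, quantile normalization, median ratio scaling, the replicate number as a block, all 6 samples, the near-identical samples counted once, the leading transcript in place of the sum, the compared stages alone and each sample left out. The same alternatives for single transcripts and the F-test, the ratio of STAT5B to STAT5A and the STAT5B sum without XM_021066242.1 were added after seeing the data. A single correlation value is not reported here.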

Additional observations from a re-analysis of the deposited data

Results flagged for a closer look

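Member transcripts were at 0 in all 3 counted samples of a stage in 12 cases, and in 9 of these at least 1 of the 3 near-identical samples that were not counted held a value above 0. The highest was 1.77 units, for SOCS2 XM_013998081.2 in PL, and it is listed here as a signal in samples that no comparison used. Of the 36 values concerned 19 were above 0. No explanation was tested.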

How the results depend on the processing

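Quantile normalization and median ratio scaling each brought the gene sums passing to 0 in W2 vs PL, PL vs MG, PL vs LG, the lactation contrast, PL against the other stages and the F-test, and the pathway genes passing in the lactation contrast from 22 to 13 and 12. The leading transcript in place of the sum gave 0 in W2 vs PL, PL vs MG, PL vs LG and the F-test and 1 in both pooled contrasts. Compared stages alone gave 1 in W2 vs PL, 0 in PL vs MG and PL vs LG, and 0 in place of 5 DETs. All 6 samples per stage, which count near-copies as sows, gave 1 in LG vs MG, 2 in EL vs LG and EL vs MG, 3 in PL vs EL, 5 in W2 vs PL, PL vs LG and PL against the other stages, 4 in W2 vs EL, 6 in the F-test and 17 DETs. Counted once, the near-identical samples gave 3 in PL vs EL and in the F-test.

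Leaving out 1 sample gave 1 to 3 gene sums in PL vs MG, 0 to 3 in PL vs LG, 1 to 3 in PL against the other stages and 0 to 1 in the F-test (0 without PL sample 6). In PL vs LG none passed without LG sample 1, and 1 without LG sample 4 or PL sample 2. In PL vs MG 1 passed without MG sample 3 or PL sample 2.

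Correlations of the deviations from stage means ran from −0.10 to 0.14 in 19 same-numbered pairs and from −0.11 to 0.18 in 71 other pairs. Whether same-numbered samples share a batch was not tested. The replicate block gave 1 gene sum in PL vs MG, 0 in PL vs LG and 1 in PL against the other stages.

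Among the single gene values followed over all alternatives, these turned. In PL against the other stages JAK2 became 0.18 (quantile), 0.15 (median ratio) and 0.78 (leading transcript), ELF5 0.21, 0.37 and 1.33 in that order and −0.60 to 0.40 without single samples (0.40 without PL sample 2), and CISH −0.27 to 1.30 (−0.27 without PL sample 3, 1.30 without PL sample 6). STAT5A in lactation became −0.02, −0.05 and −0.29 without LG sample 3, LG sample 4 and EL sample 6 (range −0.29 to 0.44), and in W2 vs PL −0.11 (quantile) and −0.10 (median ratio). The cause was not tested. Of 323 other values for whole comparisons each stayed within 1.5 times of the count. With 3 sows per stage, small differences of genes at a few units may not be detectable.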
